A study of Mus musculus with 6 samples.

Results

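The signals that a testis offers its germ cells were followed through 9 genes: 5 ligands made by somatic cells (Gdnf, Kitl, Cxcl12, Fgf2 and Csf1) and 4 receptors carried by germ cells (Ret, Gfra1, Kit and Cxcr4). Members were chosen by name: every non-control probe whose gene name in the array files is one of these 9. That gave 14 probes and 33 spots, out of 55681 probes and 59305 non-control spots on the array. All 9 genes were among the 24551 genes tested, and the probe used for each lay well above background in all 6 arrays.

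RNA came from whole testes of newborn males (postnatal day 0) of the mixed FVB.129/Sv strain, with 2 animals per genotype and 1 single-colour Agilent array per animal. Every animal, controls included, carried Vasa-cre, a Cre recombinase driven by the germ cell gene Ddx4. VSKO animals had 1 deleted and 1 floxed allele of Sin3a, HEMI animals had 1 deleted and 1 intact allele, and WT animals had both alleles intact. Sin3a encodes a scaffold of histone deacetylase complexes. The deleted allele of VSKO and HEMI animals is not described by its cell type in their allele names, while Cre acts in germ cells. The labels call the 2 arrays of a group biological replicates.

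Newborn male germ cells are gonocytes, quiescent cells inside cords of Sertoli cells, which soon migrate to the cord wall and found the spermatogonial stem cells. GDNF from Sertoli and peritubular cells binds the co-receptor GFRA1 on germ cells and signals through the tyrosine kinase RET, and this signal keeps stem cells renewing. KITL on Sertoli cells acts through the tyrosine kinase KIT in migrating and in differentiating germ cells. CXCL12 guides germ cells that carry CXCR4. FGF2 acts with GDNF on stem cell growth, and CSF1 from interstitial and peritubular cells is known both as a macrophage growth factor and as a stem cell signal.

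Levels are given as log2 processed signal minus the 75th percentile of the array, so that 0 is that percentile, a negative value is dimmer, and 1 unit is a doubling. They compare animals for 1 probe and not probes with each other. Between 59.2% and 64.5% of spots per array lay well above background, none was saturated, and the 2 animals of a group correlated across genes at 0.987 to 0.992. The number of arrays limits the precision. Sin3a stood at 0.61 and 0.38 in VSKO, 0.89 and 0.89 in HEMI and 1.09 and 1.11 in WT, in the order of the labels, without passing the test (VSKO minus WT -0.60, limma adjusted p = 0.134). The slide row was read from a digit in the array file names, which is 1 for VSKO and HEMI arrays and 2 for WT arrays. Slide row, so read, and genotype cannot be told apart in the comparisons with WT. The tissue carried its labelled cells: the germ cell genes Ddx4 (1.73 to 2.31) and Dazl (1.33 to 1.90) and the Sertoli cell genes Sox9 (1.42 to 2.16) and Amh (1.20 to 1.87) lay above background in every array.

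By the main probe of each gene, the receptors Cxcr4 and Ret spread furthest among the 9 genes, and neither passed the test. Another Csf1 probe spanned 2.58 log2 units over the 6 animals, beside 2.53 for Ret. Cxcr4 was brighter in both WT animals than in the 4 animals with a deleted allele, by 3.59-fold over VSKO and 3.94-fold over HEMI. Ret was brightest in both HEMI animals, by 2.22-fold over WT and 3.13-fold over VSKO. The main probes of the 5 ligands differed by at most 1.46-fold between any 2 genotypes. Between VSKO and WT, 0 of 9 genes passed an adjusted p of 0.05 in limma, where 0.965% of all genes tested did. Between HEMI and WT 0 of 9 passed, against a background of 0.118%, and between VSKO and HEMI 0 of 9, against 0.143%. At an unadjusted p of 0.05, 1 of 9 passed between VSKO and WT (Cxcr4), 2 between HEMI and WT (Cxcr4 and Ret) and 1 between VSKO and HEMI (Ret). The background at that threshold was 14.7%, 12.4% and 7.69%.

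**Figure D1:**
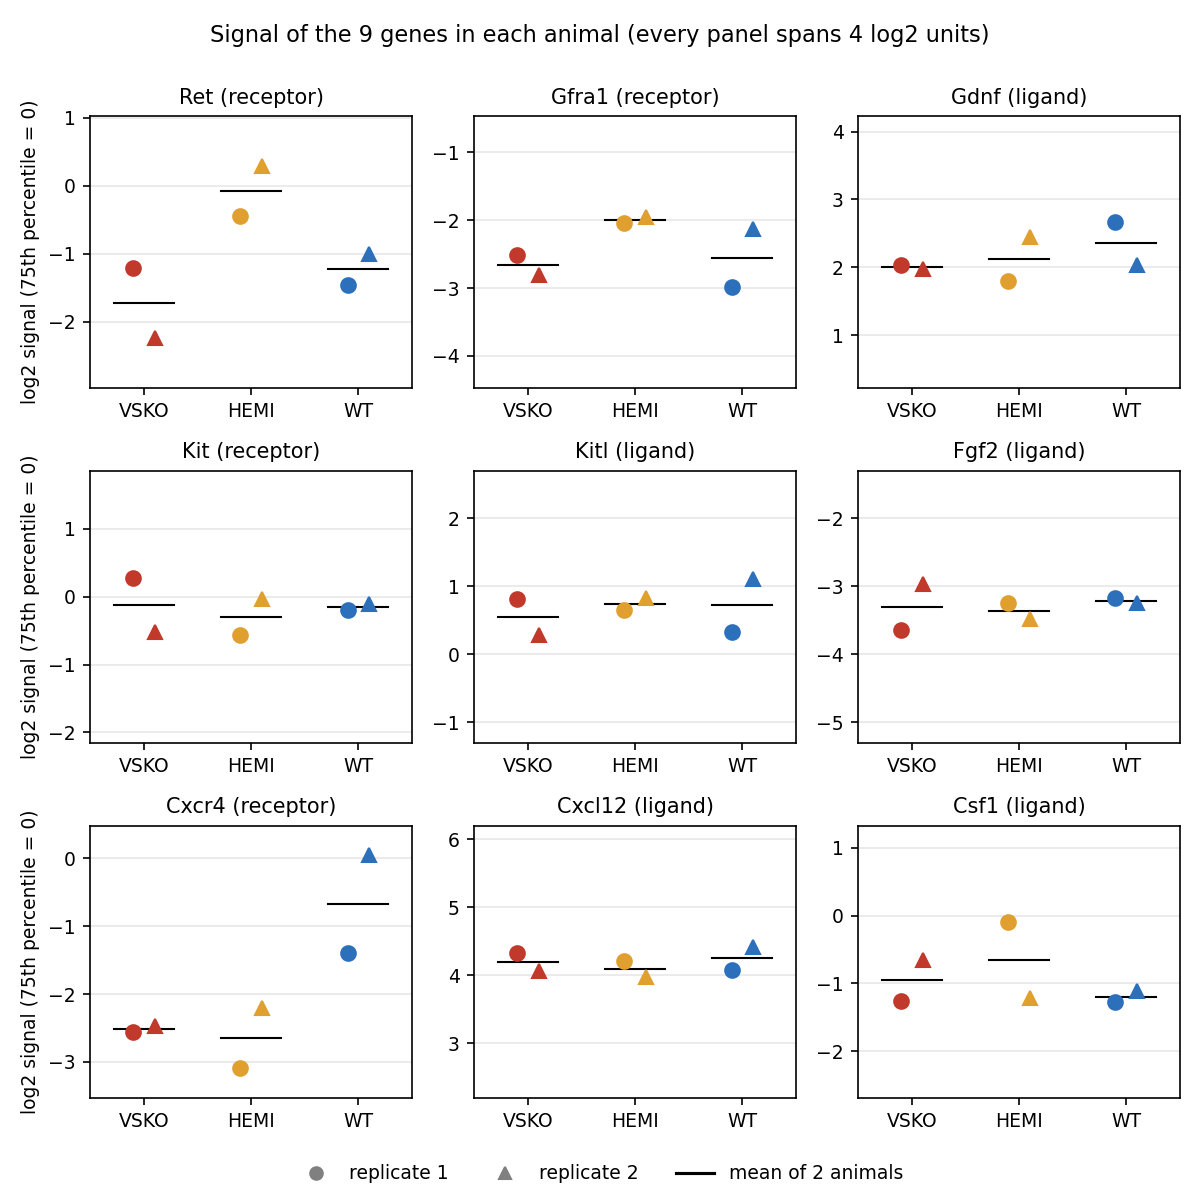
Each panel shows 1 gene, with the log2 signal relative to the array's 75th percentile on the vertical axis and the genotype on the horizontal axis; points are animals and lines are means of 2. The WT animals lie apart in Cxcr4 (-1.39 and 0.04, against -3.09 to -2.21 in the others), and the HEMI animals in Ret (-0.44 and 0.29, against -2.24 to -1.0).

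With 2 animals a group, groups often fail to overlap. Between VSKO and WT 45.7% of all genes had groups that did not overlap, as had 2 of the 9 genes, Cxcr4 and Gdnf. Between HEMI and WT it was 49.3% of all genes and 4 of 9, Ret, Gfra1, Cxcr4 and Fgf2. Between VSKO and HEMI it was 32.9% of all genes and 2 of 9, Ret and Gfra1. Of the 27 differences (9 genes in 3 comparisons), these 8 kept their sign under every alternative tried. Groups that do not overlap cannot turn when 1 array is left out, so this adds nothing to the count. The other 19 turned in sign under at least 1 alternative.

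Gdnf, the ligand of the GDNF axis, lay above the 75th percentile in all 6 testes. It stood at 2.04 and 1.97 in VSKO, 1.79 and 2.45 in HEMI and 2.66 and 2.04 in WT. WT replicate 1 was the highest and HEMI replicate 1 the lowest. VSKO and WT did not overlap, but VSKO replicate 1 and WT replicate 2 parted only past the second decimal. The fitted difference VSKO minus WT was -0.35 ± 0.30 (SE, n = 2 per group; 95% interval -1.11 to 0.41; limma adjusted p = 0.645). HEMI minus WT was -0.23 (-0.99 to 0.53) and VSKO minus HEMI -0.11 (-0.87 to 0.65).

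Gfra1, the GDNF-binding co-receptor, was read by a probe on chromosome 19 (mm9 chr19:58311604-58311663, minus strand). It stood at -2.52 and -2.81 in VSKO, -2.04 and -1.95 in HEMI and -2.98 and -2.14 in WT. Both HEMI animals were above the other 4, while the WT animals lay on either side of VSKO. The gap between the WT animals, 0.85, was exceeded by 5.05% of genes. HEMI minus WT was 0.56 ± 0.30 (95% interval -0.19 to 1.32; limma adjusted p = 0.522), VSKO minus HEMI -0.67 (-1.43 to 0.09; adjusted p = 0.744) and VSKO minus WT -0.11 (-0.87 to 0.65; adjusted p = 0.901).

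Ret, the signalling kinase of the same receptor, was read by a probe on chromosome 6 (mm9 chr6:118101791-118101850, minus strand). Windows of 30 bases open the probes of both receptor parts, bases 1 to 30 of 60. They show which transcript stretch the signal comes from, and none of the letters is marked.
Ret: ccataccgtgttgacttgtttttgtaatca
Gfra1: ccacaacttagaacagtttggattcaaggt
Ret stood at -1.21 and -2.24 in VSKO, -0.44 and 0.29 in HEMI and -1.46 and -1.0 in WT. The HEMI animals were both above the other 4, and the VSKO and WT animals overlapped. The difference HEMI minus WT was 1.15 ± 0.43 (95% interval 0.07 to 2.24; limma adjusted p = 0.376). VSKO minus HEMI was -1.64 ± 0.43 (-2.73 to -0.56; limma adjusted p = 0.351). VSKO minus WT was -0.49 (-1.58 to 0.60; adjusted p = 0.649), and 0.02 without VSKO replicate 2. In Ret and in Gfra1 alike the mean was highest in HEMI, then WT, then VSKO, and the step from WT to VSKO was within the spread of the animals.

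In whole tissue, a lower receptor signal from fewer germ cells and one from less RNA per germ cell cannot be told apart. The summed linear signal of 14 germ cell markers, 13 of them above background in every array, was 31.3 and 29.5 times the 75th percentile in VSKO, 32.1 and 35.5 in HEMI and 34.4 and 37.8 in WT. WT and HEMI lay above VSKO in this sum and HEMI overlapped WT. Gene by gene, 14 of 14 markers were lower in VSKO than in WT by their means (median -0.45, beside -0.01 over all genes). So were 12582 of all 24551 genes. In 11 markers the groups did not overlap and VSKO was lower, as in 5740 of all 24551 genes. Of the 14, 7 had an unadjusted p under 0.05, where 14.7% of all genes did, and 1 fell after adjustment (Nanos2, also among the GDNF-responsive genes). Between HEMI and WT the median was -0.21, beside -0.02 over all genes, with 11 of 14 lower, as were 13145 of all 24551 genes. Between VSKO and HEMI the median was -0.12, beside 0.02, with 10 of 14 lower in VSKO, as were 10947 of all genes. VSKO was lower without overlap in 5 markers and higher in 1, as in 3465 and 4615 of all genes. At an unadjusted p of 0.05 it was 4 of 14, where 7.69% of all genes passed. The part of the markers in the receptor values was not tested.

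Kitl, the KIT ligand, stood at 0.82 and 0.28 in VSKO, 0.65 and 0.82 in HEMI and 0.33 and 1.11 in WT. The WT animals held the highest value and nearly the lowest, so all 3 groups overlapped. For Kitl, VSKO minus WT was -0.17 ± 0.32 (95% interval -0.97 to 0.63; limma adjusted p = 0.841) and HEMI minus WT 0.01 (-0.79 to 0.82).

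Kit, its receptor, was read by a probe present as 2 spots, whose log2 values differed within an array by an SD of 0.00647 to 0.102. Kit stood at 0.27 and -0.52 in VSKO, -0.57 and -0.03 in HEMI and -0.20 and -0.12 in WT. The VSKO animals lay on either side of WT and HEMI replicate 1 was lowest. For Kit, VSKO minus WT was 0.03 ± 0.31 (95% interval -0.77 to 0.83; limma adjusted p = 0.974), and -0.00070 with median scaling, so no direction could be read. HEMI minus WT was -0.15 (-0.95 to 0.65) and VSKO minus HEMI 0.18 (-0.62 to 0.98). The 2 VSKO animals differed by 0.79 from each other.

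Cxcl12, the chemokine ligand, varied least among the 9 genes. Its main probe stood at 4.33 and 4.06 in VSKO, 4.21 and 3.98 in HEMI and 4.08 and 4.42 in WT. The probe of another transcript form stood at 4.16 and 4.25, 4.09 and 4.14, and 4.12 and 4.32. All 6 animals lay within 0.44 by the first probe and 0.23 by the other. VSKO minus WT was -0.06 ± 0.19 by the main probe (95% interval -0.53 to 0.42; limma adjusted p = 0.920) and -0.01 (-0.35 to 0.33; adjusted p = 0.977) by the other. For HEMI minus WT the probes gave -0.15 and -0.11.

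Cxcr4, its receptor, gave the widest spread of the main probes, 3.13 log2 units over the 6 animals. It was read by 1 probe on chromosome 1 (mm9 chr1:130485079-130485138, minus strand). That probe and the other Cxcl12 probe (mm9 chr6:117125026-117125085, plus strand) hold AATAAA, the usual polyadenylation signal, shown in capitals within bases 27 to 56 and 30 to 59 of the 60-base probes.
Cxcr4: tgtggtaaattgAATAAAgctagccgtgat
Cxcl12: ttatttacctgaAATAAAatctactagttg
These letters occur, as printed, in 2 of the 14 probes and in 10.1% of all probes of the array. On the opposite strand they occur in 2 of the 14 and in 3.74% of all probes. A match says only that the letters are there.

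Cxcr4 stood at -2.56 and -2.48 in VSKO, -3.09 and -2.21 in HEMI and -1.39 and 0.04 in WT. Both WT animals were above all 4 others, and the WT animals differed by 1.43 from each other, a gap exceeded by 1.36% of genes. Cxcr4 differed by -1.84 ± 0.53 between VSKO and WT (SE, n = 2 per group; 95% interval -3.19 to -0.50; limma adjusted p = 0.219). It was -1.13 without WT replicate 2 and -2.56 without WT replicate 1. Between HEMI and WT the difference was -1.98 ± 0.53 (-3.32 to -0.63; limma adjusted p = 0.254), and -1.26 without WT replicate 2. VSKO minus HEMI was 0.13 (-1.21 to 1.48; adjusted p = 0.999), within the spread of the HEMI animals. The 2 comparisons with WT share the WT animals and the slide rows as read from the file names.

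Most markers of fetal Leydig cells, the androgen-making cells between the cords, were brighter in WT, as Cxcr4 was. The summed signal of 6 measured Leydig markers of 7 listed, all above background in every array, was 110 and 112 in VSKO, 98.7 and 119 in HEMI and 162 and 195 in WT. WT replicate 2 was the highest of the 6 in Cxcr4 and in this sum. Gene by gene, 5 of the 6 were lower in VSKO than in WT without overlap, where 45.7% of all genes did not overlap. Between HEMI and WT 5 of the 6 were again lower without overlap, beside 49.3% of all genes. Hsd3b1 overlapped in both, at 0.03 for VSKO minus WT and -0.13 for HEMI minus WT. Star, the mitochondrial cholesterol carrier, stood at 1.48, 1.36, 0.96, 1.65, 2.70 and 3.79 in VSKO, HEMI and WT in turn, and Cyp17a1, an androgen-making enzyme, at 3.86, 4.15, 4.29, 4.44, 5.29 and 5.50. The sum of 7 endothelial markers was also higher in WT, 22.7 and 22.4 against 17.9 to 19.8 in the other 4, but its genes did not all point one way. Between VSKO and WT 4 were lower and 3 higher in VSKO (Tie1 0.29, Emcn 0.13 and Tek 0.01). Of the 7, 2 did not overlap, where 45.7% of all genes did not. Pecam1 overlapped between VSKO and WT, at -0.94 and -0.71 in WT and -1.35 to -0.77 elsewhere. Between HEMI and WT 6 of the 7 endothelial markers were lower in HEMI, and Tie1 was at 0.008. The list's median there was -0.24, beside -0.02 over all genes. In 3 of the 7 HEMI was lower without overlap, beside 49.3% of all genes that did not overlap. Their part in the Cxcr4 result was not tested.

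Fgf2 lay far below the 75th percentile of every array. Its main probe, present as 10 spots, stood at -3.64 and -2.96 in VSKO, -3.25 and -3.49 in HEMI and -3.18 and -3.25 in WT. The VSKO animals held both the lowest and the highest value. The files place the 2 ends of this 60-base probe at mm9 chr3:37247934-37295153, which is far longer than the probe. VSKO minus WT was -0.09 ± 0.25 (95% interval -0.71 to 0.54; limma adjusted p = 0.901). HEMI minus WT was -0.16 (-0.78 to 0.47). VSKO minus HEMI was 0.07, and -0.0043 with median scaling. The SD between spots within an array was 0.105 to 0.201, less than the gap of 0.67 between the VSKO animals. A second Fgf2 probe was well above background in WT replicate 2 alone, at -5.05, and entered no test.

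Csf1 was read by 4 probes, of which 3 were kept. All 3 had their lowest mean in WT, but by differences of unlike size, and WT overlapped the other groups by the main probe. The main probe, 10 spots at mm9 chr3:107544333-107544392 (minus strand), stood at -1.26 and -0.66 in VSKO, -0.09 and -1.21 in HEMI and -1.27 and -1.11 in WT. HEMI replicate 1 was the highest and the groups overlapped. VSKO minus WT was 0.24 ± 0.41 (95% interval -0.80 to 1.27; limma adjusted p = 0.828) and HEMI minus WT 0.54 (-0.49 to 1.58; adjusted p = 0.635). Without HEMI replicate 1 the latter was -0.02. A pair of probes on another transcript form lies at mm9 chr3:107548521-107548580 and chr3:107548550-107548609 (minus strand). They overlap by 31 bases, so they are not independent. The 2 windows show the edges of that overlap, in capitals where a base belongs to it: the first enters the overlap and the other leaves it, so the capitals are different parts of it.
A_55_P2017914, bases 15 to 44: tcacattagttttaaCAGCTGCATCATATA
A_55_P2169669, bases 17 to 46: TGTCATATGTTGAGCttgtagtctattaaa

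Probe A_55_P2169669 stood at -3.69 and -3.00 in VSKO, -2.50 and -3.89 in HEMI and -5.08 and -4.55 in WT. Both WT animals were below the other 4. In a fit over all kept probes VSKO minus WT was 1.47 ± 0.52 (95% interval 0.16 to 2.79; limma adjusted p = 0.299) and HEMI minus WT 1.62 (0.30 to 2.93; adjusted p = 0.333). Probe A_55_P2017914 stood at -3.88 and -2.96, -2.57 and -3.86, and -4.11 and -4.36, again with WT lowest, and gave 0.81 (limma adjusted p = 0.524) and 1.01 (adjusted p = 0.504). By all 3 probes HEMI replicate 1 was the highest of the 6 animals and VSKO replicate 2 the next. With the mean of the gene's kept probes in place of the main probe, Csf1 stood at 0.84 between VSKO and WT and at 1.06 between HEMI and WT, without passing.

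**Figure D2:**
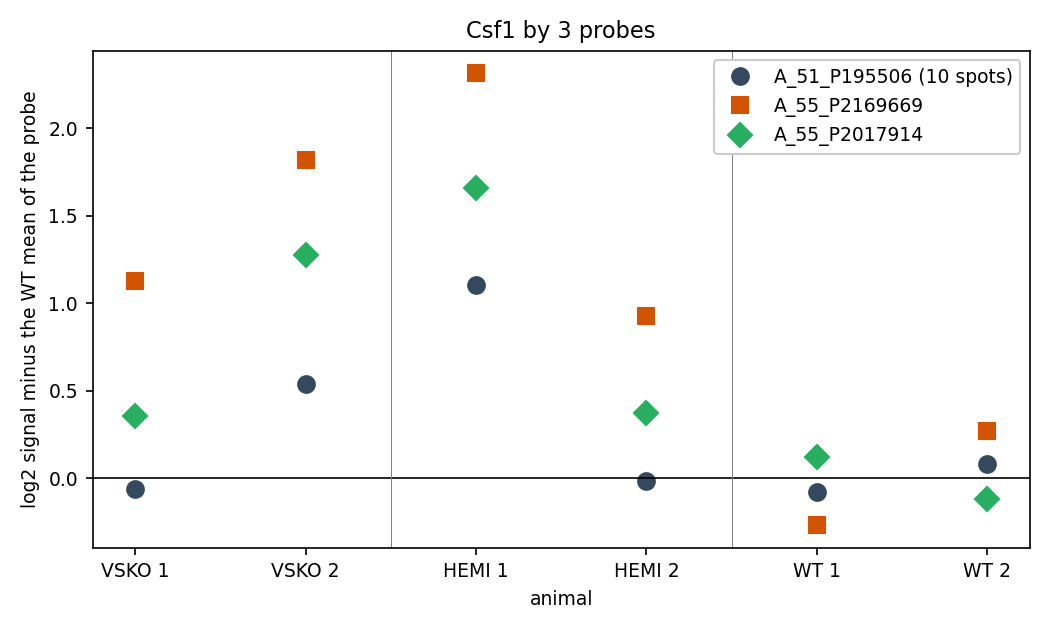
Log2 signal of each animal minus the mean of the 2 WT animals for that probe (vertical axis), by animal (horizontal axis), for the 3 Csf1 probes kept. The circles of the main probe lie near 0 in VSKO replicate 1 and HEMI replicate 2, where the squares of A_55_P2169669 lie near 1, and all 3 probes peak in HEMI replicate 1.

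HEMI replicate 1, the highest animal in Csf1, was also the highest in the summed markers of macrophages, mesonephric duct, interstitium and mast cells. The other animals did not keep the order of Csf1. WT replicate 1 was lowest by the main Csf1 probe but not in the macrophage sum. The summed signal of 9 macrophage markers was 9.12 and 13.5 in VSKO, 14.5 and 7.77 in HEMI and 12.2 and 10.3 in WT, highest in HEMI replicate 1 and next in VSKO replicate 2. The sum of 8 mesonephric duct markers, of which 6 were above background in every array, was 9.05 and 14.4, 16.1 and 11.0, and 8.13 and 9.21, with the same 2 animals highest. It rests mostly on the keratin Krt8, the brightest of the 8 in every array at 2.85 to 3.66. The highest value of any other was 0.89, for Cdh16 in HEMI replicate 1. The sum of 9 interstitial markers was 356 in HEMI replicate 1 and 245 to 295 elsewhere. That of 5 measured mast cell markers of 7 listed was 7.19 in HEMI replicate 1 and 3.45 to 5.27 elsewhere. The receptor Csf1r is itself the brightest of the 9 macrophage markers, so it is part of their sum. It stood at 2.10 and 2.63 in VSKO, 2.66 and 1.90 in HEMI and 2.62 and 2.35 in WT. Their part in the Csf1 values was not tested.

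**Figure D3:**
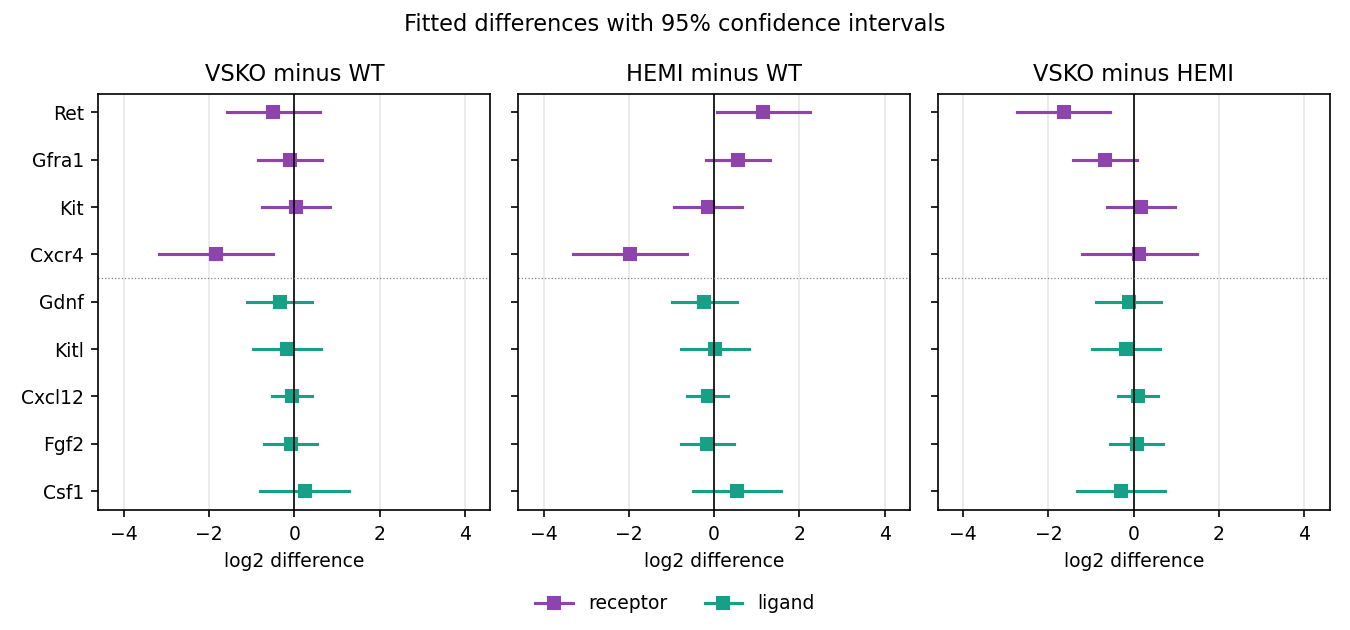
Fitted log2 differences (horizontal axis) with 95% confidence intervals for the 4 receptors and 5 ligands (vertical axis) in the 3 comparisons. The intervals of Cxcr4 leave out 0 in both comparisons with WT and those of Ret in both comparisons with HEMI, before adjustment over all genes.

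By their main probes, the receptors spread more widely than the ligands as groups, which rested on Cxcr4 and Ret. The main probes differ in their number of spots, with 10 for the ligands Fgf2 and Csf1, 2 for Kit and 1 for each other gene. The part of the spot number in the spread was not tested. Between VSKO and WT, Cxcr4 stood at -1.84 and the next receptor, Ret, at -0.49. By probe A_55_P2169669 the ligand Csf1 gave 1.47 between VSKO and WT and 1.62 between HEMI and WT. Both lie beyond the ligand ranges given here. Between VSKO and WT the 4 receptors ranged from -1.84 to 0.03 with a median of -0.30, and the 5 ligands from -0.35 to 0.24 with a median of -0.09. The median over all genes was -0.01. Between HEMI and WT the receptors ranged from -1.98 to 1.15 (median 0.21) and the ligands from -0.23 to 0.54 (median -0.15), beside -0.02 for all genes. Between VSKO and HEMI the medians were -0.27 and -0.11, beside 0.02. Without VSKO replicate 2 the receptor median between VSKO and WT was 0.03.

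Each receptor was then set against its ligand within the same animal, as the change of one minus the change of the other. Cxcr4 minus Cxcl12 was -1.79 between VSKO and WT and -1.82 between HEMI and WT, with no overlap of the animals. Ret minus Gdnf was 1.38 between HEMI and WT and -1.53 between VSKO and HEMI, again with no overlap. It was -0.14 between VSKO and WT, where the animals overlapped. Gfra1 minus Gdnf was 0.24, 0.80 and -0.56 in the comparisons VSKO minus WT, HEMI minus WT and VSKO minus HEMI. Kit minus Kitl was 0.20, -0.16 and 0.36. In these last 2 pairs the animals did not overlap between VSKO and HEMI either, and overlapped in both comparisons with WT. In 2 animals against 2, an exact two-sided permutation test cannot go below p = 0.333, and over the 12 tests every adjusted p was 0.667 or 1.

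**Figure D4:**
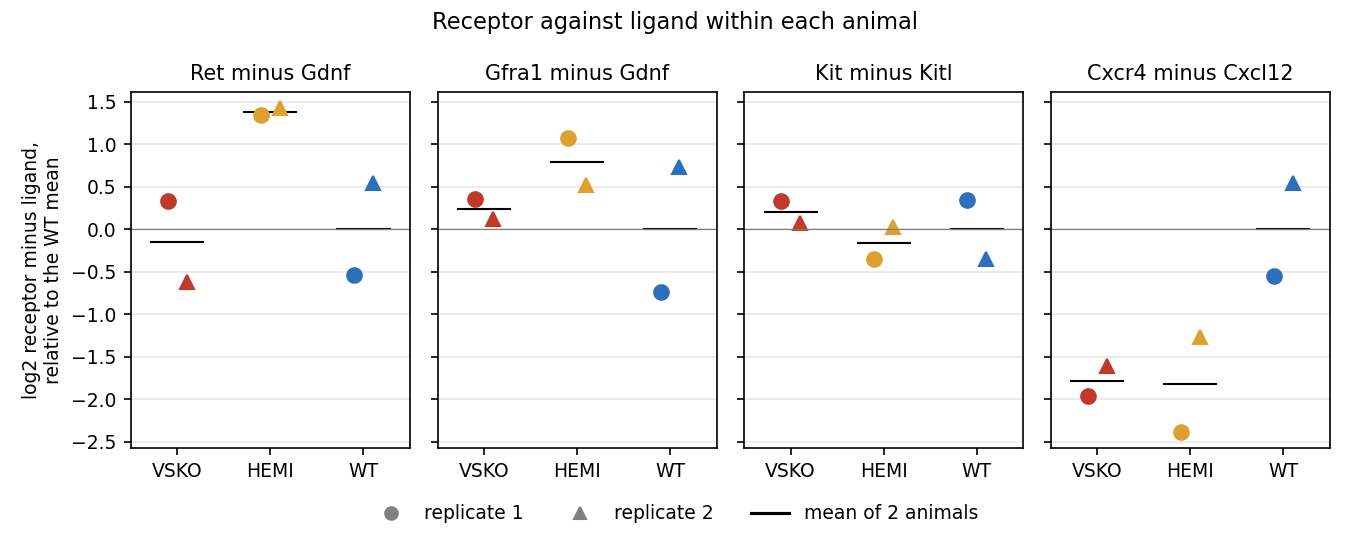
Receptor minus ligand in log2 units, relative to the mean of the WT animals (vertical axis), for each animal by genotype (horizontal axis) and for 4 receptor and ligand pairs; lines are means of 2 animals. Cxcr4 minus Cxcl12 lies between -2.38 and -1.26 in the 4 animals with a deleted allele, and Ret minus Gdnf at 1.34 and 1.42 in HEMI.

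For the 4 genes that spanned at least 1 log2 unit, the genes with the most similar profile were sought by the root mean square distance of centred log2 values over the 6 arrays. These are descriptions over 6 animals. The profiles spanned 3.13 (Cxcr4), 2.53 (Ret), 1.18 (Csf1) and 1.03 log2 units (Gfra1), and a narrow profile gives small distances, so distances are not compared between the 4 genes. Nearest to Cxcr4 was Star (0.128), followed by Nppc (0.262), the precursor of C-type natriuretic peptide, and Nr4a1 (0.290), an early-response nuclear receptor. Nearest to Ret were Terb1 (0.316), which ties meiotic telomeres to the nuclear envelope, Tmem59l (0.316) and Marveld2 (0.325), a protein of tight junctions. Terb1 was at -6.32 in VSKO replicate 2, under the dimmest signal well above background on that array (-5.57), so its place rests in part on a value that is only a bound. Nearest to Gfra1 were Cdh4 (0.114), a cadherin, the homeobox gene Rhox5 (0.137) and the Y-linked Usp9y (0.138). Nearest to Csf1 were Ifitm3 (0.0866), an interferon-induced membrane protein, Cyp2e1 (0.0913), a cytochrome P450, and Ano1 (0.0939), a chloride channel.

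Beyond the 9 genes, lists of genes of the same pathways were read from the same fit. Of 10 tested genes that respond to GDNF in spermatogonial stem cells (11 listed), 2 rose and 1 fell between VSKO and WT, where 0.346% of all genes rose and 0.619% fell. The list's median was 0.41, and 0.36 between HEMI and WT, where 0 of 10 passed. At an unadjusted p of 0.05 it was 6 of 10 between VSKO and WT, against 14.7% of all genes, and 3 of 10 between HEMI and WT, against 12.4%. The list was chosen with earlier results of these data known, so these counts are no test of a GDNF response. T, the mesoderm factor Brachyury, stood at -1.59 and -1.53 in VSKO, -3.29 and -2.72 in HEMI and -3.47 and -3.98 in WT. Both VSKO animals were far above the others, and T rose by 2.17 ± 0.26 between VSKO and WT (limma adjusted p = 0.0433). Lhx1, a homeobox factor also found in the mesonephric duct and in that marker list, stood at -1.75 and -1.77 in VSKO, -1.41 and -1.56 in HEMI and -3.15 and -2.86 in WT. Both VSKO and both HEMI animals were above WT, and Lhx1 rose by 1.25 ± 0.15 between VSKO and WT (limma adjusted p = 0.0433). The mean of the gene's probes gave 0.76 (adjusted p = 0.0944). Nanos2, an RNA-binding protein of male germ cells, stood at -2.68 and -2.17 in HEMI and -3.28 and -2.95 in WT. In VSKO it was not well above background on either array, and it fell, being at least 5.96-fold lower than in WT (limma adjusted p = 0.0425). The bound uses the dimmest signal well above background on each VSKO array, or the probe's own where that was higher. All 3 calls were lost without any 1 of the 6 arrays, with adjusted p of 0.0619 to 0.165 for T, 0.0905 to 0.166 for Lhx1 and 0.0751 to 0.175 for Nanos2. They were lost as well with quantile normalization (adjusted p = 0.0518 to 0.0602), with no filter on dim probes (0.0969 to 0.0973), in a fit of VSKO and WT alone (0.0619 to 0.0905) and, for Nanos2, with normexp (0.0575). With normexp background correction the fitted differences of T and Nanos2 were smaller, 1.26 and -0.98. The latter is short of the bound given for Nanos2. The response genes Etv5 and Bcl6b were named after their values were seen. Etv5 stood at 3.97 and 3.52 in VSKO, 3.59 and 3.79 in HEMI and 3.47 and 3.63 in WT. Bcl6b stood at -0.47 and -0.84, -0.94 and -0.66, and -1.43 and -1.12.

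In the other pathway lists 0 genes passed in any comparison, so values are given for up to 2 genes a list, from those with the largest difference between VSKO and WT. Counts at an unadjusted p of 0.05 stand beside 14.7% of all genes. Of 7 GDNF family ligands and co-receptors, Nrtn (neurturin) stood at 0.52 and Artn (artemin) at -0.41, with a list median of -0.10 and 0 genes at an unadjusted p of 0.05. Nrtn was 0.27 without VSKO replicate 2 and Artn -0.047 without WT replicate 2. Of 20 genes of receptor tyrosine kinase signalling, the exchange factor Sos1 stood at 0.69 (median 0.13, 4 unadjusted). Sos1 rested on VSKO replicate 1, without which it stood at 0.023. Of 9 regulators of Kit and genes of differentiating spermatogonia, Dmrtb1 stood at -1.50 and Neurog3, a factor of spermatogonial progenitors, at -0.99 (median -0.19, 3 unadjusted). In that list 8 of 9 genes lay below 0, as did 12582 of all 24551 genes and 14 of 14 germ cell markers, of which Zbtb16 and Nanos3 are in both lists. The part of the markers in these values was not tested. With normexp Dmrtb1 stood at -0.53 and Neurog3 at -0.64.

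Of 9 genes of the chemokine axis, the monocyte chemokine Ccl2 stood at 2.06 (limma adjusted p = 0.231) and its receptor Ccr2 at 1.30 (median 0.04, 2 unadjusted). Ccl2 was at -1.88 and -1.92 in VSKO, -0.53 and -2.49 in HEMI and -4.01 and -3.92 in WT, so both WT animals were below the other 4. Its adjusted p was 0.0473 in a limma fit of VSKO and WT alone, so it passed there. Ccr2 rested on VSKO replicate 2, without which it stood at -0.18. Of 11 FGF ligands and receptors, Fgf1 stood at 0.96 and Fgf18 at 0.86 (median -0.10, 2 unadjusted), and Fgf1 at -0.81 without VSKO replicate 2. Fgf18 was 0.47 without WT replicate 2. Of 4 tested genes of the CSF axis, Csf2rb stood at 0.48 and Il34, another ligand of the CSF1 receptor, at 0.37 (median 0.19, 0 unadjusted). Il34 was 0.15 without VSKO replicate 2.

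Of 19 other niche ligands, Bmp8b stood at 0.87 and Wnt4 at 0.82 (median -0.13, 2 unadjusted), and Bmp8b at 0.39 without WT replicate 2. Of 20 other niche receptors, Flt1 stood at -0.46 and Acvr1b, an activin receptor, at -0.46 (median 0.01, 1 unadjusted). Flt1 was -0.11 without VSKO replicate 2 and Acvr1b -0.20 without WT replicate 1. The receptors of 3 ligands among the 9 genes were chosen after their values were seen. Fgfr1, an FGF receptor, differed by -0.01 (0.01 with quantile normalization; limma adjusted p = 0.981), Csf1r by -0.12 (adjusted p = 0.895) and Ackr3, the other receptor of CXCL12, by 0.04 (adjusted p = 0.974) between VSKO and WT.

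**Figure D5:**
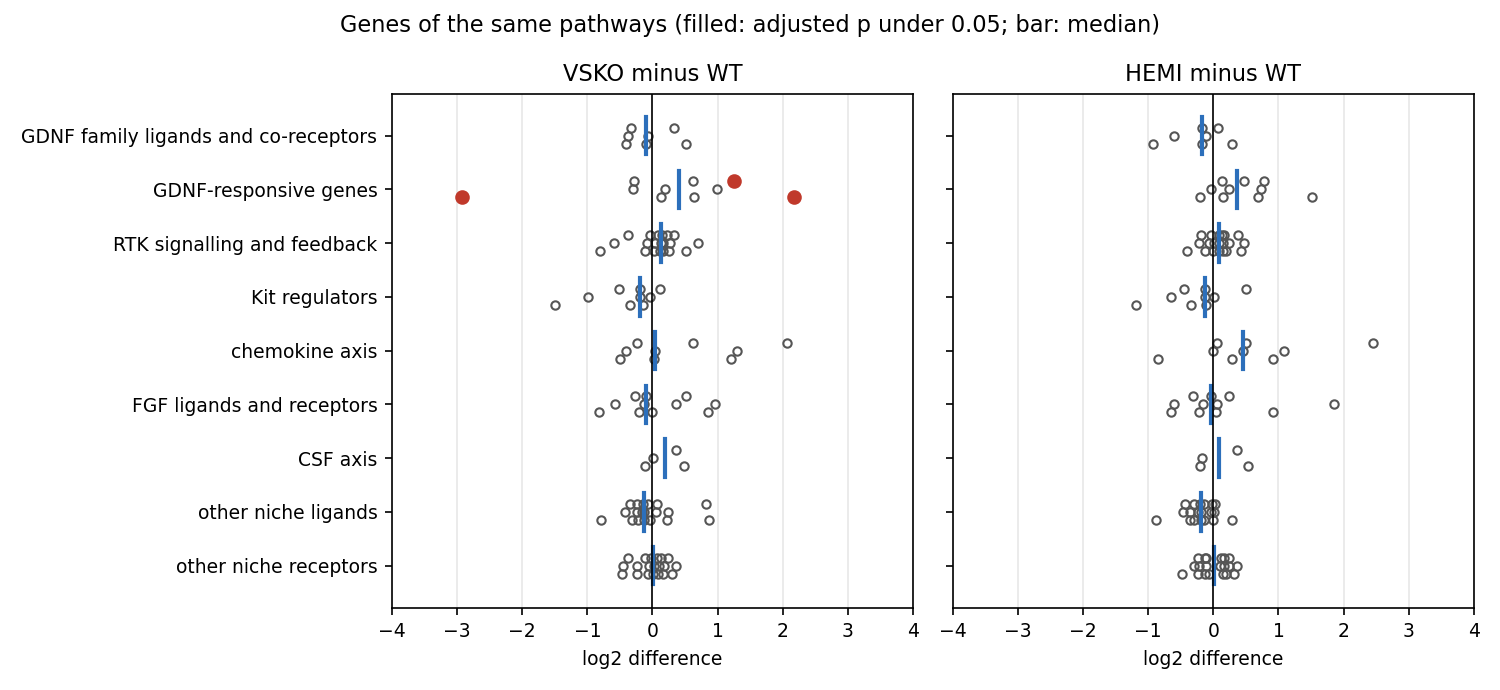
Fitted log2 differences (horizontal axis) of the tested genes of 9 pathway lists (vertical axis), between VSKO and WT and between HEMI and WT; each circle is 1 gene, bars are list medians, and filled circles passed an adjusted p of 0.05. The only filled circles are T, Lhx1 and Nanos2 in the list of GDNF-responsive genes, of which T lies at 2.17 and Lhx1 at 1.25. Nanos2 is drawn at its fitted value, which is no measured difference because the gene was not well above background in VSKO.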

How the data were processed

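Total RNA from whole testes of 6 newborn mice was amplified, labelled with Cy3 and hybridised, 1 array per animal, per the labels' protocols. The deposited array files hold processed intensity per spot, which per the file headers had background subtracted and was detrended array by array, a surrogate standing in where a spot was too dim. Mean and background intensity are given too, and per the file headers 0 or 1 quality flags (unit: other) mark spots that are outliers, saturated or clearly brighter than background. Per the file headers the extraction modules were version 10.7.3.1, while the submitters' processing notes name Agilent Feature Extraction 8.5.1.1. The authors' series table holds intensity divided by the median of each array.

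Here the log2 processed intensity was set against the 75th percentile of the non-control spots of the array. Spots called outliers were dropped and the rest averaged per probe. A probe had to be well above background in both animals of some group, and the brightest kept probe stood for its gene. limma 3.58.1 (R 4.3.3) fitted 1 mean per group over all 6 arrays, with 3 residual and 2.25 prior degrees of freedom, and Benjamini-Hochberg adjustment over 24551 genes. The script was tested on simulated data. Genes were named through RefSeq (GRCm38.p6, names only), which matched all 9 members, and probe positions are on mm9 as in the files. Whether a probe lies in a coding or an untranslated part is not given in the sources used here.

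The 9 members and all gene lists were chosen with earlier results of these data known. Named genes are the members, genes of each pathway list that passed (otherwise the 2 with the largest difference between VSKO and WT), the first 2 measured genes of marker lists, and the 3 nearest profiles of members spanning at least 1 log2 unit; 1 gene that this rule names is not reported here. Marker lists were summed on the linear scale. Sums not given beside a result ranged over the arrays from 381 to 440 (Sertoli cells), 76.8 to 118 (smooth muscle) and 9.08 to 10.6 (glia and neurons). The erythroid sum ranged from 160 to 536 and was highest in VSKO replicate 2. Alternatives were median and quantile scaling, normexp background correction, the series table, other filters and probe rules, an intensity trend, fits of 2 groups, a replicate block and leaving out each array.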

Additional observations from a re-analysis of the deposited data

Results flagged for a closer look

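A 4th Csf1 probe, A_55_P2017911, was left out of the tests because it was not well above background on both arrays of any group. It was well above background in VSKO replicate 1 alone, at a log2 signal of -5.15, higher than the WT animals at -7.55 and -7.41, which were not above background. VSKO replicate 2 stood at -7.85 and the HEMI animals at -7.81 and -8.10. It is listed because it is a signal outside the main measurement that exceeds the controls; VSKO replicate 1 was not the highest animal by any of the other 3 Csf1 probes.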

How the results depend on the processing

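Under every alternative 0 of 9 members passed in each comparison (1, 2 and 1 of 9 at an unadjusted p of 0.05 as reported). The number of all genes called moved more. Between VSKO and WT 237 became 12 with no filter on dim probes, 42 in a fit of these groups alone and 19 with the replicate block. Between HEMI and WT 29 became 55 with median scaling or the series table, 132 with normexp, 68 with probes above background on all 6 arrays, 130 with an intensity trend, 4 in a fit of 2 groups, 0 with no filter (5278 at an unadjusted p of 0.05) and 0 with the block (2795). Between VSKO and HEMI 35 became 74 with median scaling or the series table, 17 with quantile normalization, 5 with no filter, 15 with all 6 arrays above background, 0 in a fit of 2 groups (1740) and 0 with the block (1872). The cause was not tested. Leaving out 1 array at a time gave 0 to 69 genes between VSKO and WT, 0 to 8 between HEMI and WT and 0 to 41 between VSKO and HEMI (2619 to 3942, 2018 to 3411 and 1693 to 2264 at an unadjusted p of 0.05).

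The replicate numbers did not pair the animals: same-numbered arrays of VSKO and HEMI, VSKO and WT, and HEMI and WT deviated with r = -0.0370, -0.0275 and -0.00588 across genes. With the replicate block 0 of 9 members passed and T, Lhx1 and Nanos2 had adjusted p of 0.0944, 0.0950 and 0.0557.

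Signs turned near 0: Kit between VSKO and WT stood at -0.00070 with median scaling or the series table, and Fgf2 between VSKO and HEMI at -0.0043 under both and -3.6e-05 with quantile normalization, under which Fgfr1 stood at 0.012. Without 1 array each, other differences turned as well. For VSKO minus WT these ranges were: Kit from -0.36 to 0.43, Fgf2 from -0.43 to 0.25, Csf1r from -0.38 to 0.14, Fgfr1 from -0.14 to 0.12, Ret from -1.01 to 0.023, Gfra1 from -0.53 to 0.32, Kitl from -0.56 to 0.22, Cxcl12 from -0.22 to 0.11, Csf1 from -0.062 to 0.54, Ccr2 from -0.18 to 2.77, Fgf1 from -0.81 to 2.73 and Ackr3 from -0.51 to 0.60. For HEMI minus WT these ranges were: Kit from -0.42 to 0.12, Gdnf from -0.56 to 0.095, Csf1 from -0.017 to 1.1, Kitl from -0.38 to 0.40 and Cxcl12 from -0.32 to 0.013. For VSKO minus HEMI these ranges were: Kit from -0.22 to 0.57, Cxcl12 from -0.037 to 0.23, Kitl from -0.45 to 0.083, Fgf2 from -0.27 to 0.40, Cxcr4 from -0.31 to 0.57, Csf1 from -0.86 to 0.25 and Gdnf from -0.44 to 0.21. Probes not well above background have only a bound there, as Nanos2 does in VSKO.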
